A study of Schizosaccharomyces pombe with 6 samples.

Results

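Small nucleolar RNAs (snoRNAs) and spliceosomal small nuclear RNAs (snRNAs) of fission yeast, Schizosaccharomyces pombe, were followed in cultures with and without estradiol. They were taken as every row of the deposited expression table whose identifier starts with SPSNORNA or SPSNRNA. The rule uses names and no measured values, though the set was chosen with earlier results of these data known. The rule gave 60 of the 7016 rows, 53 with the first prefix and 7 with the second. Of those 7, 5 are annotated in the RefSeq reference as the spliceosomal RNAs U1, U2, U4, U5 and U6, and the other 2 (snu3 and snu32) as U3, which is a snoRNA.

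The groups were 3 cultures given 1 µM beta-estradiol dissolved in ethanol for 3 h and 3 control cultures given the ethanol vehicle. All grew unsynchronised in log phase in rich YES liquid medium. The labels name no strain, genotype, activator or reporter, so what the cells carry besides the agent is known only through a row called GFP in the table and a series title about an estradiol-induced promoter. RNA was depleted of ribosomal RNA, made into TruSeq libraries that do not keep strand, and sequenced in pairs. The authors deposited FPKM, fragments scaled by transcript length and by the total of the library, for each library. In these bulk cultures, fewer cells holding an RNA and less of it per cell cannot be told apart.

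In a cell, snoRNAs sit in the nucleolus and guide chemical changes of ribosomal RNA. Box C/D snoRNAs carry a C box near the 5′ end and a D box near the 3′ end and direct ribose methylation, whereas box H/ACA snoRNAs end in a short tail after the letters ACA and direct pseudouridylation. A few, such as U3, are needed for cutting the ribosomal RNA precursor instead. The snRNAs form the core of the spliceosome: U1 and then U6 pair with the 5′ splice site, U2 pairs with the branch site, U4 holds U6 inactive until the spliceosome is activated, and U5 contacts the exon ends. Many snoRNAs are trimmed out of introns or of longer noncoding precursors.

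The sequences below show the features that tell the classes apart, and the loci on which the later results turn. They are DNA letters from the RefSeq assembly ASM294v3, read in the direction of transcription. Capitals mark the C box TGATGA and the last CTGA (D box) in snoZ8 and snoU14, the last ACA in snR91, snR98, snR95 and snR30, the first 8 letters of U1, which pair with the 5′ splice site, and the GTAGTA of U2, which pairs with the branch site. snoZ8 lies at chrI:526726-526803 (plus strand), snoU14 at chrII:1308634-1308745 (plus), snR91 at chrI:3316466-3316609 (minus), snR98 at chrI:2330437-2330647 (minus), snR95 at chrII:1468185-1468406 (minus) and the printed last 100 nucleotides (nt) of snR30 at chrI:3395101-3395200 (plus). U1 lies at chrII:3020205-3020353 (plus) and U2 at chrI:959370-959556 (minus).
snoZ8: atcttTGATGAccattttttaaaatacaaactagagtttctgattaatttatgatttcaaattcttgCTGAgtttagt
snoU14: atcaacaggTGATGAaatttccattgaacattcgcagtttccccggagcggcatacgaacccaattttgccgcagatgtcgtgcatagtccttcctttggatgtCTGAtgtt
snR91: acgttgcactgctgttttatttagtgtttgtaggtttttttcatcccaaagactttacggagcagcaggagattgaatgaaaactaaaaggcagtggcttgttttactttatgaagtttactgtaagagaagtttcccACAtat
snR98: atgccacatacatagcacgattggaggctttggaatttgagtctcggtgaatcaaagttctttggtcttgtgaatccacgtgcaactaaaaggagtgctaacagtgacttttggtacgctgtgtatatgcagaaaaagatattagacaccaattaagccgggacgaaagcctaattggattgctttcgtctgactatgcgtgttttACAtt
snR95: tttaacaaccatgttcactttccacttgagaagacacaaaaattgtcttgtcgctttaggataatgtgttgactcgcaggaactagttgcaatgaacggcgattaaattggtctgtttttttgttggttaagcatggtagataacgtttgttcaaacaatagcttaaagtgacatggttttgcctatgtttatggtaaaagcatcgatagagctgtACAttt
snR30, last 100 nt: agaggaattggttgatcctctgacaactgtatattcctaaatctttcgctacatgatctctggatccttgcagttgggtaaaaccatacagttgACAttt
U1: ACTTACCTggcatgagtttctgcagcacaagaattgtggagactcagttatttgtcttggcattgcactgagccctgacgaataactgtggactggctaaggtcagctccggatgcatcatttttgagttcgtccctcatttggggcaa
U2: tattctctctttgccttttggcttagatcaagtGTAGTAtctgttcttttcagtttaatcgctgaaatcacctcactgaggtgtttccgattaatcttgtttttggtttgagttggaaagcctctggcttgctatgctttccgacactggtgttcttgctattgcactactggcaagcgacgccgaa
A C box within the first 20 nt together with a D box within the last 20 nt was found in 17 of the 60 rows, all of them among the 36 snoRNAs not named H/ACA, and in 5 of 12585 other reference genes (0.0397%). The letters ACA stood within the last 9 nt in 15 of the 19 rows whose reference product is named H/ACA (78.9%), against 12% of other genes. ACTTACCT occurred in 1 of the 60 rows and in 0.648% of 1851 other noncoding genes within the same range of lengths (47 to 326 nt), and GTAGTA in 6.1% of those genes. These searches read the RNA strand only, and a match is a description of the letters and not a tested site. The 2 U3 genes were 87.1% identical over 132 aligned positions (local alignment, positions 3 to 134 of snu3 against 125 to 255 of snu32). Fragments from that stretch could have been split between their rows. The stretch lies in the first part of snu3 and the last part of snu32, so the annotated intervals do not line up end to end.

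The table holds no counts, and absolute depth is unknown. From the spacing of the lowest values, relative depth was 0.688, 2.30 and 0.722 in estradiol libraries 0, 1 and 2 and 1, 1.30 and 0.893 in control libraries 0, 1 and 2 (control library 0 set to 1), so estradiol library 1 was the deepest and estradiol library 0 the shallowest. Libraries are numbered as the table numbers its columns, and values are given in that order throughout. The GFP row measured 814, 775 and 553 FPKM in estradiol libraries, against 131, 148 and 161 FPKM in control libraries (log2 change 2.26, SE 0.157, adjusted p = 0.00158), with the groups far apart as labelled. Actin (act1) and the S-phase histone genes hht1, hta1 and htb1 were detected in every library. The 3 histone genes were called lower with estradiol, with log2 changes of -0.45, -0.37 and -0.30 (adjusted p = 0.0157, 0.0271 and 0.0287).

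Whether a row was listed at 0 throughout followed its length and class. Of the 60 rows, 26 were listed at 0 in all 6 libraries, 8 were at 0 in some and 26 at 0 in none. Only 22 had at least 1 FPKM in every library. Among the 32 rows of up to 110 nt, 25 (78.1%) were at 0 throughout, against 185 of 191 other rows of that length (96.9%). None of the 15 rows over 140 and up to 200 nt was at 0 throughout, against 25 of 40 other rows of that length (62.5%), nor any of the 10 rows over 200 and up to 500 nt, against 33 of 444 other rows (7.43%). Transfer RNA rows, all of 71 to 86 nt, were at 0 throughout in 166 of 171 cases. A listed 0 can be a failed estimate and does not show that an RNA was absent. A row counted as not at 0 can also be a trace, such as snR90 (302 nt), with at most 0.0146 FPKM in any library.

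The classes differ in length. None of the 19 H/ACA rows (142 to 302 nt) was at 0 throughout, and 15 of them had at least 1 FPKM in every library, with means over the 6 libraries of 37.5 to 2746 FPKM. Of the 17 rows with C and D box letters (73 to 112 nt), 14 were at 0 throughout, snoZ8 among them. snoU14, a C/D snoRNA that in budding yeast is needed for making small-subunit ribosomal RNA, was the longest of those 17 at 112 nt and the only member of that class with signal in every library. The shortest row measured in every library was U6, at 94 nt in the reference. The parts of length, class and library preparation in these zeros were not tested.

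**Figure D1:**
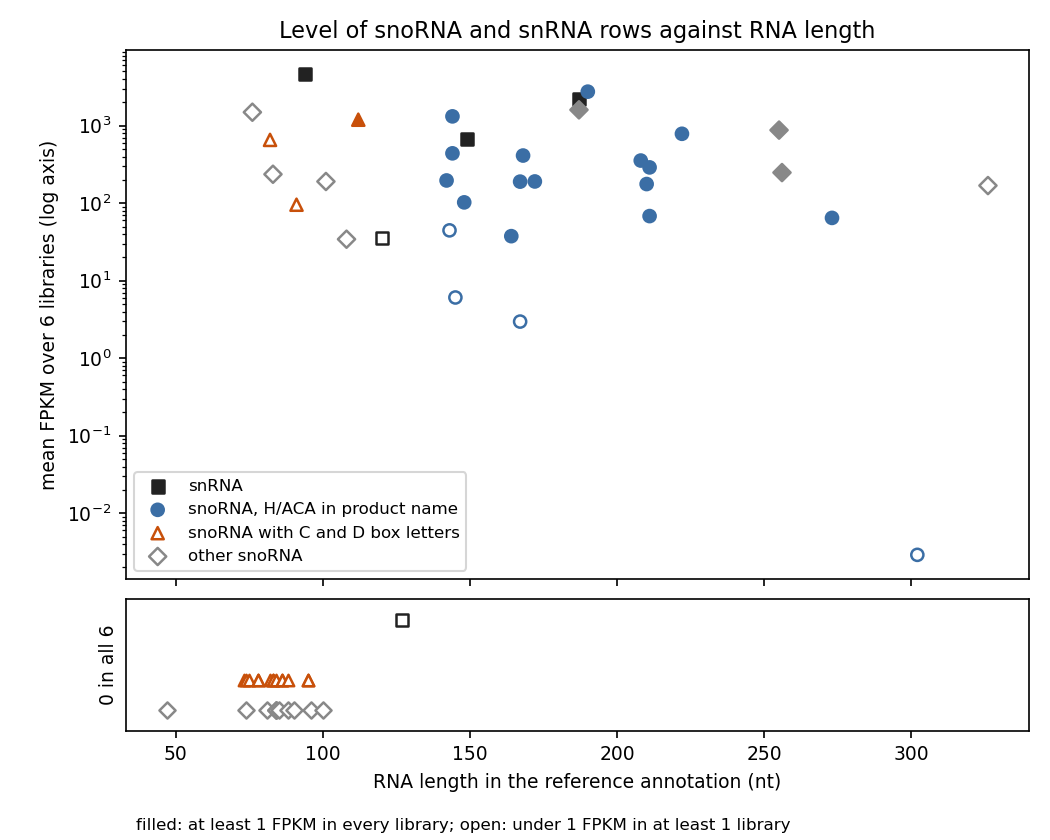
Mean FPKM over the 6 libraries (log axis) against the RNA length in nt, with rows at 0 in all 6 libraries in the lower panel; shapes and colours give the class, and filled symbols have at least 1 FPKM in every library. Rows at 0 throughout lie at 127 nt or less, and the 15 rows over 140 and up to 200 nt all have signal.

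Between these extremes lay 11 rows with 1 FPKM or more in some libraries only. snR40 measured 3933 FPKM in estradiol library 2 and was listed at 0 in the other 5. snoU24b at 1417 FPKM and snoR69b at 573 FPKM were seen in estradiol library 1 alone, the deepest. snoR39a measured 3299 FPKM in estradiol library 1 and 5647 FPKM in control library 1, the deepest library of each group, and was listed at 0 in the remaining 4. Multiplied by relative depth, those values of snoR39a became 7592 and 7336, nearly the same amount. Other rows went another way. snR93 was listed at 0 only in the deepest, estradiol library 1. It measured 44.6 and 60.6 FPKM in estradiol libraries 0 and 2 against 55.05, 79.5 and 27.9 FPKM in control libraries. snR70 measured 205 FPKM in control library 2 and under 1 FPKM in the other 5.

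snoZ15 was listed at 205 FPKM in estradiol library 1 against 484 and 454 FPKM in control libraries 0 and 2, or 471 against 484 and 406 after multiplying by depth. For snR33 the values were 11.1 FPKM in estradiol library 1 against 25.3 FPKM in control library 0, or 25.6 against 25.3. U5 gave 98.7 and 71.4 in estradiol libraries 1 and 2 against 90.8 in control library 1 after the same scaling, and snR3 gave 5.85 and 15.4 in control libraries 0 and 1. The scaled values were thus close to each other for snoR39a, snoZ15 and snR33, less so for U5, and not for snR3. Across coding genes with readable steps, 1 fragment was also worth more per length in short genes than in long ones: the depth implied by full length, in units of 1000000 fragments, was 3.56 in 6 genes under 700 nt and 4.24 in 9 genes of at least 2000 nt. Levels of rows of different lengths are compared here with that limit.

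The spliceosomal RNAs spanned the range from top to nothing. U6 had the highest mean of all 60 rows, with 3454, 6508 and 4989.85 FPKM in estradiol libraries against 2629, 7031 and 2886 FPKM in control libraries. Libraries numbered 1 were the highest in both groups, and the groups overlapped (log2 change 0.36, SE 0.408, adjusted p = 0.636). U2 measured 2695, 2014 and 2349 FPKM in estradiol libraries against 2254, 2115 and 1718 FPKM in control libraries (log2 change 0.21, SE 0.144, adjusted p = 0.407). U1 measured 550.1, 683 and 847 FPKM in estradiol libraries against 582, 795 and 616 FPKM in control libraries (log2 change 0.05, SE 0.181, adjusted p = 0.895). The groups overlapped for both RNAs.

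U5 was thinly measured, with 0, 42.9 and 98.9 FPKM in estradiol libraries against 0, 69.9 and 0 FPKM in control libraries. U4 was listed at 0 in all 6 libraries. U4 and U6 act as a base-paired unit in the cell, but their rows stood at opposite ends of this table. The reference lengths were 127 nt for U4, 120 nt for U5, 149 nt for U1 and 187 nt for U2.

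Among snoRNAs that act in cutting the ribosomal RNA precursor, U3 had signal in the rows of both its genes. The snu32 row stood at 927, 822 and 959.8 FPKM in estradiol libraries, against 842, 876 and 833 FPKM in control libraries (log2 change 0.08, SE 0.0762, adjusted p = 0.544). The snu3 row stood at 177, 231 and 367 FPKM in estradiol libraries, against 206, 223 and 285 FPKM in control libraries (log2 change 0.07, SE 0.261, adjusted p = 0.912). The snu32 row was above the snu3 row in each of the 6 libraries, and for both rows the groups overlapped. As the annotated intervals do not line up, the rows may not cover the same part of U3, and this order does not rank the genes. snoU14 measured 986.5, 2018 and 700.3 FPKM in estradiol libraries against 1247, 1013 and 1198 FPKM in control libraries (log2 change -0.04, SE 0.355, adjusted p = 0.96). Its 3 control values lay inside the range of its estradiol values.

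Among the snoRNAs measured in every library, sno12, sno16 and snR91 had the highest means. sno12, annotated as H/ACA, measured 2625, 3109 and 2487 FPKM in estradiol libraries against 2934, 2972 and 2351 FPKM in control libraries, means of 2740.5 ± 327 and 2752 ± 348 FPKM (SD, n = 3 each). sno16 measured 1918, 1649 and 1124 FPKM in estradiol libraries against 2059, 1672 and 1180.5 FPKM in control libraries. In both groups library 0 was the highest and library 2 the lowest. snR91, of the H/ACA class, measured 1558, 1303 and 1262 FPKM in estradiol libraries against 1591, 1246 and 949 FPKM in control libraries. The groups overlapped for all 3 rows, and their log2 changes were 0.00, -0.06 and 0.15 with SEs of 0.13, 0.257 and 0.189.

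**Figure D2:**
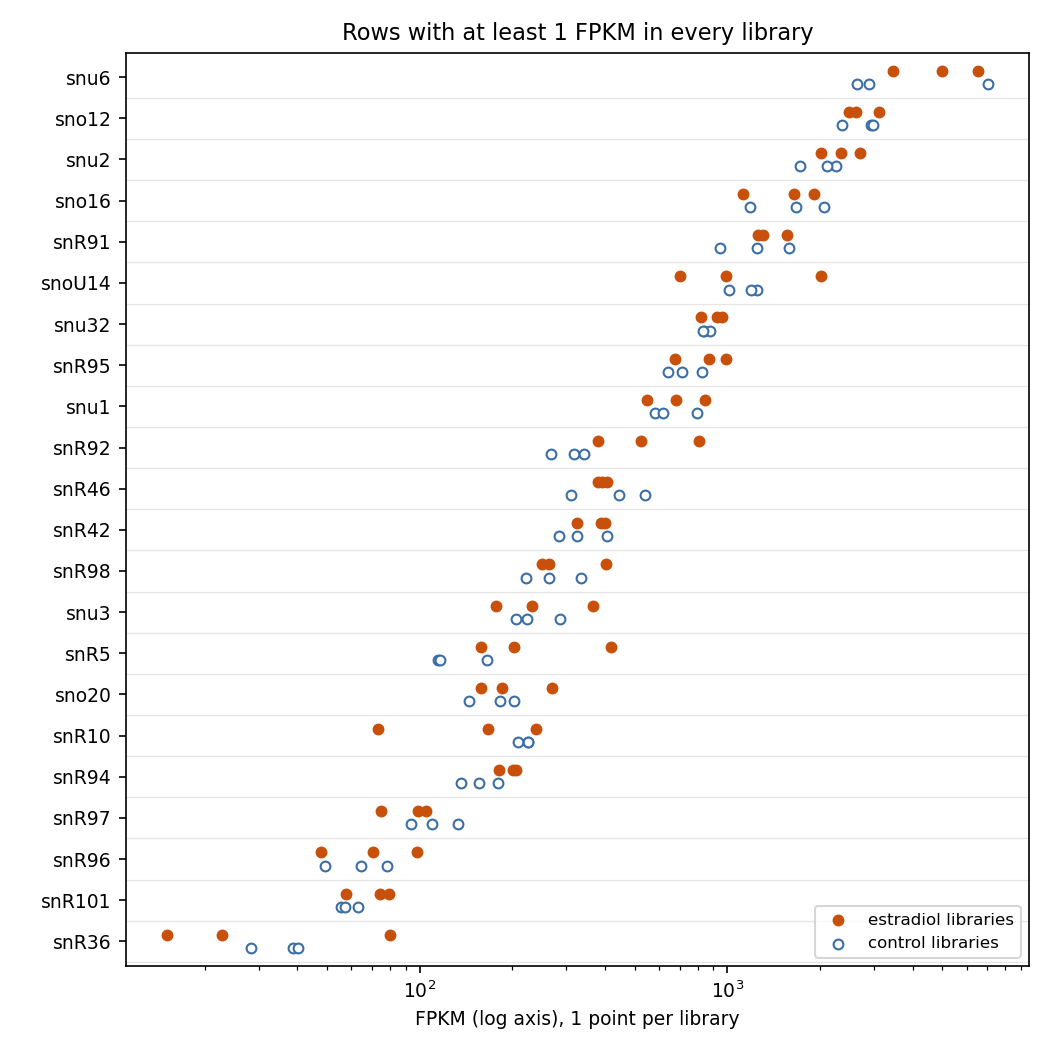
FPKM in each library (log axis, 1 point per library) of the 22 rows with at least 1 FPKM in every library, estradiol above control on each line. Estradiol and control points interleave in nearly all lines, and lie apart in snR92 and snR94 alone.

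Set against control, none of these RNAs was called in the limma fit of the 2 groups, whereas several longer or older entries of the same loci were called higher. That contrast of calls is not a test of the snoRNA rows against the other entries. A fit that also took the column number of the libraries as a block called 2 of the snoRNAs higher, snR92 and snR94. Of the 60 rows, 33 had a mean of at least 1 FPKM over the 6 libraries and were tested, 26 were at 0 throughout, and snR90 was below 1 FPKM in every library. A second row, under an older identifier of snR90, was measured in every library and is given below. With limma, 0 of the 33 were called at an adjusted p under 0.05, while 492 of all 6166 tested features were (7.98%), 251 of them higher (4.07%) and 241 lower (3.91%). At an unadjusted p under 0.05 there were 5 of 33, 3 higher and 2 lower, where 25.9% of all features passed. The median log2 change was 0.08 over the 33 rows and 0.02 over all features. The 22 steady rows had log2 changes of -0.61 (snR10) to 0.86 (snR5) with a median of 0.14, 15 above 0 and 7 below.

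These rows were noisier than most. Their median residual SD on the log2 scale was 0.43, against 0.125 over all features, and it passed 1 in 11 of the 33 rows, against 1.69% of all features. A missing call therefore does not show that a level was the same in both groups.

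The nearest to a change were a few H/ACA snoRNAs. snR92 measured 809, 523 and 379 FPKM in estradiol libraries against 316, 343 and 267 FPKM in control libraries. Every estradiol value lay above every control value, with estradiol library 0 far above its fellows (log2 change 0.82, SE 0.26, adjusted p = 0.105). snR94 measured 181, 201 and 205 FPKM in estradiol libraries against 136, 156 and 180.2 FPKM in control libraries, also without overlap though estradiol library 0 and control library 2 almost touched (log2 change 0.32, SE 0.11, adjusted p = 0.123). Non-overlap was seen in these 2 of 33 rows and in 31.2% of all features. With the column number as a block, the adjusted p was 0.0278 for snR92 and 0.0215 for snR94, so both were called in that fit, which called 1030 of 6166 features (16.7%).

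snR5, whose budding yeast namesake guides pseudouridylation, measured 420.1, 203 and 158 FPKM in estradiol libraries against 115, 166 and 116 FPKM in control libraries. Its groups overlapped, and estradiol library 0 was the high value (log2 change 0.86, SE 0.352, adjusted p = 0.183). snR10, needed in budding yeast for efficient processing of the ribosomal precursor, measured 73.1, 239 and 167 FPKM in estradiol libraries against 225, 224 and 209 FPKM in control libraries. There the same library 0 was the low value (log2 change -0.61, SE 0.388, adjusted p = 0.374). Leaving out estradiol library 0 called snR101, an H/ACA snoRNA at 57.4, 74.4 and 79.8 FPKM in estradiol libraries against 63.2, 55.6 and 57.1 FPKM in control libraries, as higher (log2 change 0.39, adjusted p = 0.0454, against 0.25 and 0.268 with all libraries). The library left out was the only estradiol library within the range of the control values.

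snR30 stood out because its row was near 0 in estradiol libraries 1 and 2. It is named for a budding yeast snoRNA essential for small-subunit ribosomal RNA, and the end of its sequence is printed above. The row measured 272, 0.00103 and 0.0137 FPKM in estradiol libraries against 283, 231 and 227 FPKM in control libraries. Estradiol library 0 was thus at the control level and the other 2 estradiol libraries close to 0 (log2 change -5.24, SE 2.06, adjusted p = 0.168). Without estradiol library 0 the log2 change was -7.93 with an adjusted p of 5.72e-06. That fit leaves out the only estradiol library at the control level, so its call carries no weight.

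The table also holds a row for SPNCRNA.906, which the reference lists as an older identifier of snR30. That row measured 458, 711 and 772 FPKM in estradiol libraries against 188, 209 and 181 FPKM in control libraries. All estradiol values lay above all control values (log2 change 1.71, SE 0.191, adjusted p = 0.00667), and the 2 libraries in which the snR30 row was near 0 were the 2 highest here. The interval the authors used for SPNCRNA.906 is not given in the sources used here. How their software divided fragments between the rows was not tested, and the low snR30 values do not by themselves measure less snR30.

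The same double entry was found at other loci. For 18 of the 60 rows, the table held another noncoding row of the same locus, 12 such rows in all. Such a row covers or partly overlaps the snoRNA on the same strand, or carries its older identifier. Of these 12, 6 were called higher with estradiol and 0 lower, where 4.07% of all features and 6.87% of 1091 long noncoding RNA (lncRNA) rows were called higher. The reference classes 6 of the 12 as snoRNA and 2 as lncRNA, and lists the other 4 only as synonyms. One of those, SPNCRNA.727, is a synonym both of snoZ16 and of its neighbour mrp1, the RNA of RNase MRP, so which RNA its row counts is unknown. The log2 change was above 0 in 11 of the 12, and estradiol values lay above control values without overlap in 8, where 31.2% of all features lay apart in either direction. These rows were brought in after earlier results of these data were known, and their count has no test of its own.

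SPNCRNA.1436, the older identifier of the H/ACA snoRNA snR95, measured 137, 155 and 157 FPKM in estradiol libraries against 31.8, 32.7 and 35.8 FPKM in control libraries (log2 change 2.13, SE 0.0787, adjusted p = 1.42e-04). The snR95 row itself measured 869, 989 and 674 FPKM in estradiol libraries against 826, 713 and 643 FPKM in control libraries (log2 change 0.20, SE 0.157, adjusted p = 0.467). The groups were far apart for the older identifier and overlapped for snR95. As a share of the snR95 row, SPNCRNA.1436 stood at 15.8%, 15.7% and 23.3% in estradiol libraries against 3.85%, 4.59% and 5.58% in control libraries.

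SPNCRNA.814, a noncoding entry of 487 nt that contains snR98, gave the like picture with 38.9, 47.3 and 43.4 FPKM in estradiol libraries against 13.7, 16.6 and 17.3 FPKM in control libraries (log2 change 1.39, SE 0.112, adjusted p = 0.0024). snR98 measured 263, 405 and 249 FPKM in estradiol libraries against 335, 264 and 222 FPKM in control libraries (log2 change 0.14, SE 0.219, adjusted p = 0.736). The SPNCRNA.814 row stood at 14.8%, 11.7% and 17.4% of snR98 in estradiol libraries, against 4.1%, 6.28% and 7.76% in control libraries. Here too the groups lay apart for the longer entry and overlapped for the snoRNA.

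**Figure D3:**
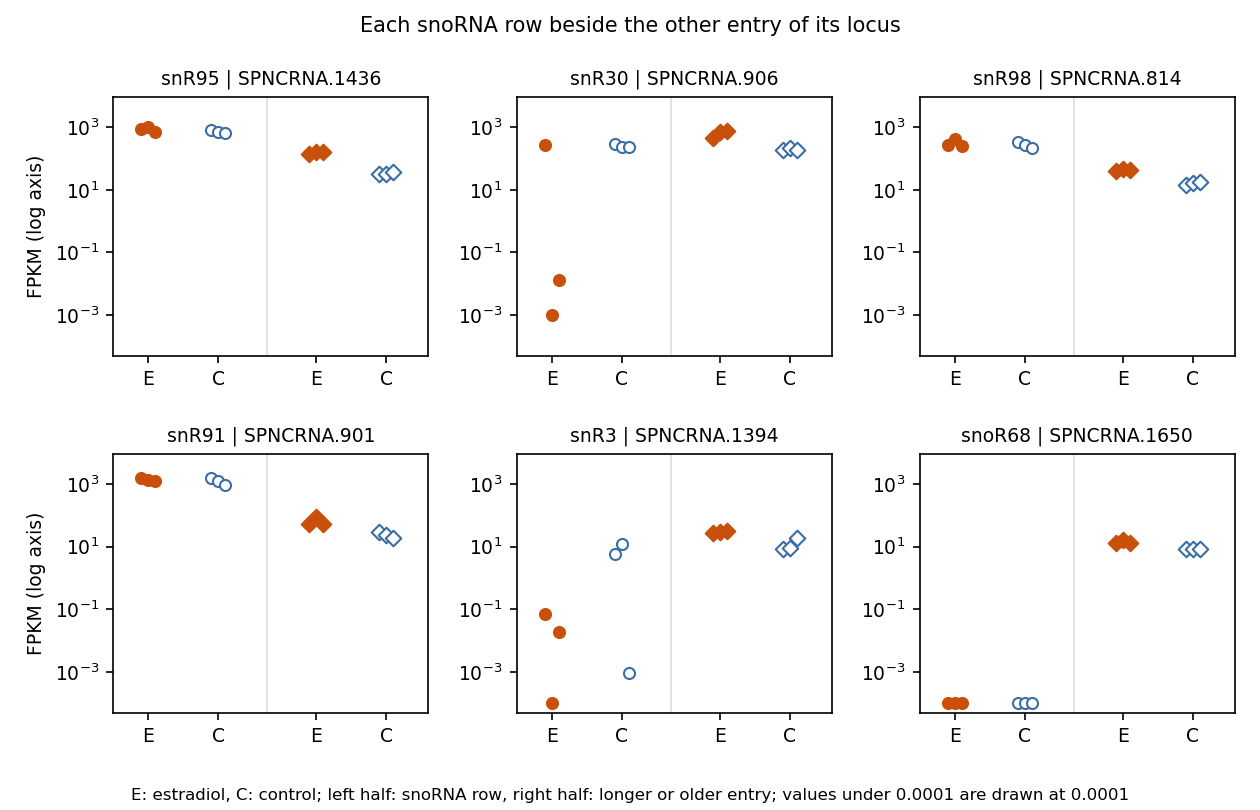
FPKM in each library (log axis) at the 6 loci whose longer or older entry was called higher, with the snoRNA row on the left and the other entry on the right of each panel, estradiol (E) left of control (C); values under 0.0001 are drawn at that floor. Estradiol values of the other entry lie above control in all 6 panels, whereas snR95, snR98 and snR91 overlap between groups.

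SPNCRNA.901, of 281 nt and partly overlapping snR91, measured 54.7, 88.7 and 52.5 FPKM in estradiol libraries against 29.8, 23.8 and 18.9 FPKM in control libraries (log2 change 1.38, SE 0.237, adjusted p = 0.0207). SPNCRNA.1394, of 429 nt and containing the H/ACA snoRNA snR3, measured 27.9, 29.7 and 31.9 FPKM in estradiol libraries against 8.29, 9.06 and 18.4 FPKM in control libraries (log2 change 1.34, SE 0.269, adjusted p = 0.0316). SPNCRNA.1650, of 842 nt and containing snoR68, measured 13.1, 16.2 and 12.8 FPKM in estradiol libraries against 8.31, 8.17 and 8.54 FPKM in control libraries (log2 change 0.68, SE 0.115, adjusted p = 0.0196). In all 3 rows the groups lay apart.

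These last calls rested on having all the libraries, though fits without 1 library called only 74 to 448 of all features, against 492. Over those fits the log2 change was 1.14 to 1.54 for SPNCRNA.901, 0.58 to 0.73 for SPNCRNA.1650 and 1.14 to 1.67 for SPNCRNA.1394. SPNCRNA.901 was called in 1 of the 6 fits that left out a library (all but the one without estradiol library 0 lost it, adjusted p up to 0.0811), SPNCRNA.1650 likewise in 1 (all but that without estradiol library 0, up to 0.0794), and SPNCRNA.1394 in 1 (all but that without control library 2, up to 0.112). SPNCRNA.1436, SPNCRNA.814 and SPNCRNA.906 were called in all 6, with adjusted p of at most 0.00355, 0.0218 and 0.0483. snoR68 itself was listed at 0 throughout. snR3 measured 0.0729, 0.0000547 and 0.0189 FPKM in estradiol libraries against 5.85, 11.9 and 0.000926 FPKM in control libraries, and was called lower only without control library 2 (log2 change -3.19, adjusted p = 0.0209, against -2.11 and 0.192 with all libraries). The row passed the filter on low values only through control libraries 0 and 1, so that call carries no weight.

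The difference between the entry and its snoRNA was tested for the 7 pairs in which both rows could be. On the log2 scale it was larger with estradiol by 1.93 for snR95, 1.25 for snR98, 1.23 for snR91, 3.45 for snR3 and 6.95 for snR30, with estradiol and control libraries apart in each. The exact 2-sided permutation test gave p = 0.1 for each of these 5, the smallest that 3 against 3 libraries allow, or 0.14 after adjustment over the 7 pairs. The differences for snR3 and snR30 rest on snoRNA rows near 0, in all estradiol libraries for snR3 and in estradiol libraries 1 and 2 for snR30. Those 2 pairs therefore carry no weight. For snR97 inside SPNCRNA.617 the difference was 0.05 (exact p = 1) and for snR70 inside SPNCRNA.723 it was 2.68 (exact p = 0.3). The snR70 row measured 0.258, 0.000947 and 0.00174 FPKM in estradiol libraries against 0.00368, 0.000728 and 205 FPKM in control libraries. The snR70 difference thus rests on values near 0 and on control library 2, and that pair carries no weight either.

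The remaining 6 entries were not called. SPNCRNA.1483 around snoZ30 measured 73.9, 85.1 and 99.2 FPKM in estradiol libraries against 61.3, 58.1 and 70.1 FPKM in control libraries, without overlap (log2 change 0.43, SE 0.121, adjusted p = 0.0774). With the column number as a block its adjusted p was 0.0152, and without estradiol library 0 it was 0.0435. SPNCRNA.659, a lncRNA of 1901 nt that holds 5 snoRNA genes in a row (snoZ8, snoZ7, snoZ5, snoZ4 and snoZ3), measured 26.9, 26.6 and 33.2 FPKM in estradiol libraries against 25.7, 24.8 and 28.4 FPKM in control libraries (log2 change 0.13, SE 0.106, adjusted p = 0.511). All 5 snoRNAs in it were listed at 0 in every library while the entry around them was measured in each. The other 4 entries had log2 changes of -0.22 to 0.27. Among them was SPNCRNA.1038, the older identifier of snR90 (log2 change 0.27, SE 0.159, adjusted p = 0.34). It measured 31.7, 23.5 and 34.9 FPKM in estradiol libraries against 28.2, 22.3 and 23.3 FPKM in control libraries. The snR90 row itself was at most 0.0146 FPKM in any library, and how fragments were divided between these rows was not tested.

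**Figure D4:**
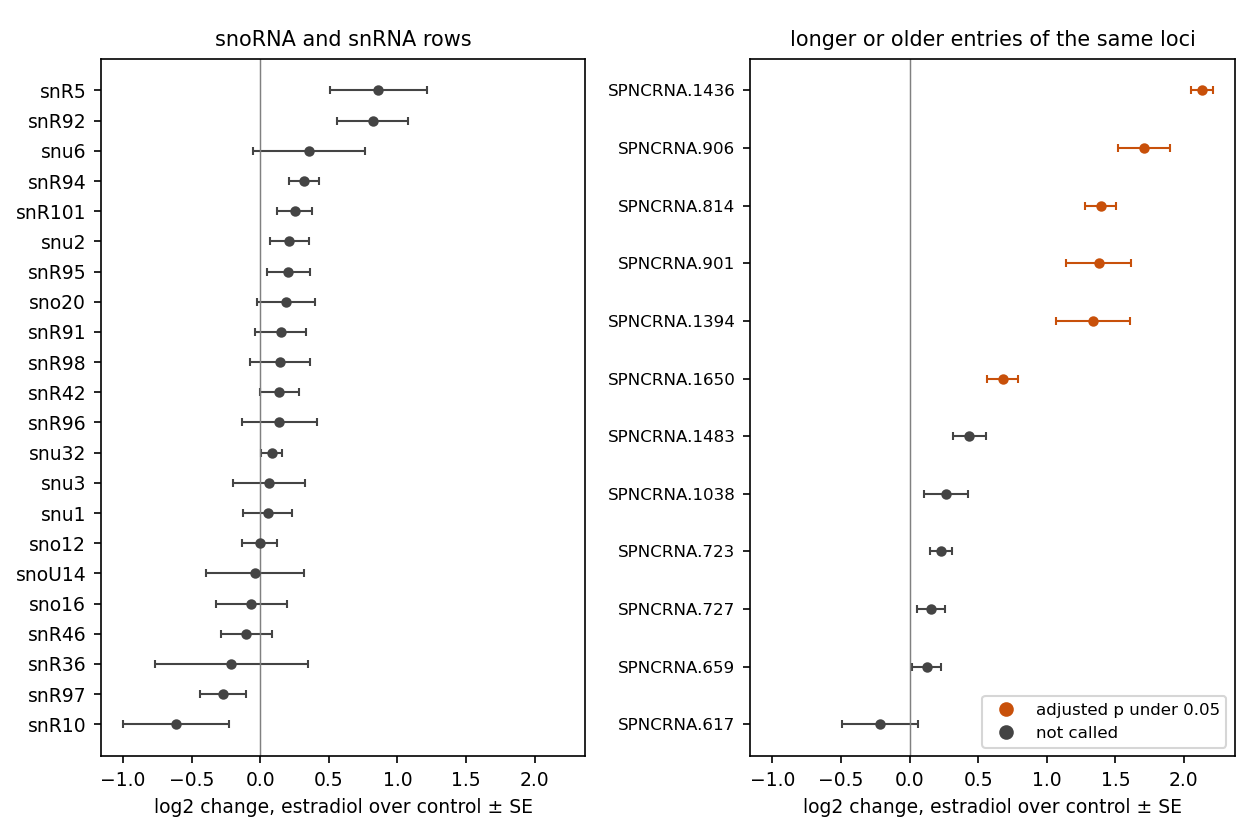
Log2 change, estradiol over control, with limma's SE as bars, for the 22 steady snoRNA and snRNA rows (left) and the 12 longer or older entries of the same loci (right); orange marks an adjusted p under 0.05. The rows on the left run from -0.61 to 0.86 with none called, and 6 of the 12 on the right are called, from 0.68 to 2.13.

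The reference classes 4 further rows outside the naming rule as snoRNAs of their own. snoR61, which the reference classes as a snoRNA of 317 nt under the identifier SPNCRNA.445, measured 241, 294 and 301 FPKM in estradiol libraries against 169.7, 179.7 and 173 FPKM in control libraries. It was called higher (log2 change 0.67, SE 0.0925, adjusted p = 0.0127), and lost the call without control library 0, control library 1 or estradiol library 1 (adjusted p up to 0.0594). Its groups did not overlap. Of the other 3, snR48 was at 0 in all 6 libraries, SPNCRNA.498 measured 225 FPKM in estradiol library 1 and 0 elsewhere, and snR191 measured 0, 25.8 and 123 FPKM in estradiol libraries against 58.7, 42.1 and 0 FPKM in control libraries (log2 change 0.12, SE 2.14, adjusted p = 0.981).

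For 10 further rows the same-strand entry was a protein-coding gene with the snoRNA in an intron, and 7 of those 10 snoRNAs were at 0 throughout although the host genes averaged 5.68 to 2871 FPKM per group. Of the 10 hosts, 0 were called higher and 1 lower, where 4.07% and 3.91% of all features were. It was pfd1, named after a prefoldin subunit and host of snoZ15, with 33.8, 29.9 and 34.5 FPKM in estradiol libraries against 59.6, 60.2 and 55.6 FPKM in control libraries (log2 change -0.82, SE 0.0766, adjusted p = 0.00421). The groups lay far apart, and the call held whichever library was left out. Strong hosts such as cpc2 (1738 ± 91.9 FPKM with estradiol and 2106 ± 165 FPKM in control, SD, n = 3 each) and rpl701 (2311 ± 169 and 2871 ± 158 FPKM) held snoU24b and snoR39b, the first seen in a single library and the second in none.

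Entries on the opposite strand overlapped 22 of the 60 rows, and for 9 of them the table held a row. Since the libraries do not keep strand, reads of such pairs cannot be told apart. Of those 9 antisense rows, 2 were called higher and 0 lower, where 4.07% and 3.91% of all features were. Beside snR92, the antisense lncRNA SPNCRNA.1487 measured 1.94, 2.51 and 0.307 FPKM in estradiol libraries against 1.78, 1.71 and 2.73 FPKM in control libraries, far below snR92. Opposite sno20, the coding gene SPBC1921.04c was called higher, with 8.01, 11.0 and 8.54 FPKM in estradiol libraries against 2.36, 2.4 and 5.23 FPKM in control libraries (log2 change 1.28, SE 0.272, adjusted p = 0.0355). sno20 covers part of that gene's coding sequence and measured 158, 186 and 269 FPKM in estradiol libraries against 144, 203 and 183 FPKM in control libraries. Whether reads of sno20 were counted in the coding row was not tested. That call was kept only without control library 2 (adjusted p up to 0.131). Opposite snr79, which was at 0 throughout, the coding gene gpi12, of membrane anchor synthesis, was called higher whichever library was left out, with 30.4, 29.4 and 29.7 FPKM in estradiol libraries against 19.1, 18.0 and 16.7 FPKM in control libraries (log2 change 0.71, SE 0.0749, adjusted p = 0.00603).

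Among the proteins that bind, build or use these RNAs, 98 genes of 10 lists were tested, and 7 were called higher and 1 lower, where 4.07% of all features were called higher and 3.91% lower. Their median log2 change was 0.05, against 0.02 over all features. With the column number as a block the counts were 15 and 5, in a fit that called 16.7% of all features in either direction. None of the 4 core C/D proteins was called (median -0.12), with snu13 at -0.14 and nop58 at -0.10. None of the 4 core H/ACA proteins was called (median -0.18), with gar1 at 308 ± 24.5 FPKM with estradiol and 390.2 ± 24.7 FPKM in control (-0.34, adjusted p = 0.0506, and 0.0119 with the block, which called it lower) and cbf5, the pseudouridine synthase, at -0.16. None of 6 assembly factors was called (median 0.06), with the helicase rvb2 at -0.23 (adjusted p = 0.0964, and 0.0239 with the block) and shq1 at 0.11.

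Of 21 U3 snoRNP and processome proteins, which act with U3 on the ribosomal RNA precursor, 3 were called higher and 0 lower (median 0.19), where 4.07% of all features were called higher. imp4 stood at 146 ± 13.8 FPKM with estradiol and 94.8 ± 8.28 FPKM in control, utp6 at 113 ± 8.46 and 74.8 ± 5.6 FPKM, and utp15 at 137 ± 6.35 and 108 ± 2.46 FPKM (SD, n = 3 each). Their log2 changes were 0.61, 0.58 and 0.35 with adjusted p of 0.0157, 0.0131 and 0.0185. All 3 kept their calls without estradiol library 0, imp4 also without control library 1 and utp6 also without control library 2, and lost them without any of the others, with adjusted p up to 0.0756, 0.0655 and 0.0694. The block called 8 of the 21 higher, and 16.7% of all features in either direction.

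Among spliceosomal proteins, usp101, a U1 snRNP protein, rose most, to 79.9 ± 6.45 FPKM with estradiol, against 44.2 ± 3.52 FPKM in control (log2 change 0.84, adjusted p = 0.00597, called whichever library was left out). It was the single call among 9 U1 proteins (median -0.04), and usp102 stood at -0.20. Of 7 Sm proteins, the ring that coats U1, U2, U4 and U5, smd3 was called higher (0.31, adjusted p = 0.0336) and smb1 lower (-0.44, adjusted p = 0.0194), with a median of -0.10. Of 12 U2 proteins prp11 was called higher (0.37, adjusted p = 0.0357, median 0.04), with uap2 next at 0.27. None of 8 LSm proteins, whose nuclear ring binds U6, was called (median -0.11, lsm6 at -0.28 and lsm1 at -0.26), nor any of 13 proteins of U5 and U4/U6 (median 0.05, snu66 at 0.32 with an adjusted p of 0.0517, or 0.0299 with the block, and rna4 at 0.33). smd3 kept its call only without estradiol library 0, smb1 only without that library or control library 2, and prp11 in 0 of the 6 fits without a library, with adjusted p up to 0.119, 0.0818 and 0.111.

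Of 14 factors listed for the maturation of snRNAs and snoRNAs, pof8 was called higher (median of the list 0.18). pof8, which in fission yeast also binds telomerase RNA and takes part in modifying U6, stood at 42.0 ± 2.07 FPKM with estradiol and 27.3 ± 1.07 FPKM in control (log2 change 0.60, adjusted p = 0.00705), and was called whichever library was left out. tgs1, the enzyme that matures the caps of such RNAs, stood at 40.9 ± 2.93 and 51.2 ± 2.44 FPKM (-0.32, adjusted p = 0.0506, and 0.0314 with the block). The block called 3 of the 14 higher and 1 lower, where it called 16.7% of all features in either direction. Of 4 other small structured RNAs, the telomerase RNA ter1 was called higher, at 186 ± 7.04 FPKM with estradiol and 149.8 ± 7.6 FPKM in control (0.31, adjusted p = 0.0316, called without control library 2 but up to 0.109 without any other library). srp7, the RNA of the signal recognition particle, stood at 2893 ± 356 and 2261 ± 39.0 FPKM (0.35, adjusted p = 0.086).

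Summed over the 60 rows, these RNAs made up 2.39%, 3.59% and 2.84% of the FPKM total in estradiol libraries against 2.11%, 3.17% and 1.9% in control libraries. The libraries numbered 1 were highest in both groups and the groups overlapped. Within each pair of the same number the estradiol share was the higher. The FPKM totals were lower in each estradiol library (798655, 767792 and 788287) than in any control library (876214, 850759 and 831139). The 60 rows summed to 19051, 27576 and 22377 FPKM in estradiol libraries against 18517, 26944 and 15758 FPKM in control libraries. They hold rows mostly at 0, such as snR40 (3933 FPKM in estradiol library 2) and snoR39a (3299 and 5647 FPKM in libraries 1). U6 alone made up 18.1%, 23.6% and 22.3% of the sum in estradiol libraries, against 14.2%, 26.1% and 18.3% in control libraries.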

How the data were processed

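RNA of 6 libraries was measured, 3 with estradiol and 3 controls. The authors deposited FPKM values, per gene and library, and CASAVA 1.4, TopHat2 and Cuffdiff are named without settings, per the submitters' processing notes. Their genome build, annotation and any scaling are not stated in the sources used here. The column names give the group but not the labels' replicate number.

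Features with a mean of at least 1 FPKM over the 6 libraries (6166 of 7016) were log2-transformed after adding 1 and fitted with limma 3.58.1 (R 4.3.3, intensity trend, 2-sided tests), with Benjamini-Hochberg adjustment over all features. A feature was called at an adjusted p under 0.05. Changes on this scale understate those of low rows. SD is over 3 libraries, and SE is limma's. The series design calls the samples biological triplicates, and p-values measure the spread between these libraries only. The script was tested on simulated data. Tables and figures used Python 3.11.15, pandas 2.3.3 and matplotlib 3.10.9, and the U3 alignment Biopython 1.88. Relative depth came from the spacing of values in features with a mean under 0.5 FPKM. Of 117 features with readable steps, 100 gave whole numbers in estradiol library 1 at the depth used and 38 at a depth of 1.15, within 0.06.

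Names, positions and sequences came from RefSeq ASM294v3, which matched all 60 rows and 6845 identifiers, with 171 unmatched. The authors' build may differ.

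Named rows were all SPSNRNA identifiers, the 10 highest means, the 6 largest absolute log2 changes and any called row, with overlapping genes beside them, and per protein list the called genes and the 2 with the smallest p. snR92, snR94, snR5, snR10, snR101, snR3, snR33, snR90, snR93, snR98, snoR61 and sno20 were added after their values were seen. The members and gene lists (103 of 108 listed genes were in the table) were chosen with earlier results of these data known.

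Deviations from the group means correlated at 0.152, 0.212 and 0.146 between estradiol and control libraries of the same column number. Other pairs gave -0.149 to -0.0112, but centring on group means pushes them to negative values once same-number pairs are positive. Libraries of the same number went together in this check, which cannot by itself settle whether the number pairs them. No label says what they share. The fit with that number as a block was an alternative, with other pseudocounts, filters, scalings, no trend, and each library left out.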

Additional observations from a re-analysis of the deposited data

How the results depend on the processing

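No member was called under pseudocounts of 0.1 and 5, no filter, a mean of at least 10 FPKM, quantile normalization, median ratio scaling or no intensity trend. The fit blocked on column number called 2 higher (snR92 and snR94). Without 1 library, 0 to 1 were called higher and 0 to 1 lower. The median log2 change of the tested members was 0.26 under quantile normalization, against 0.08, and there the changes of snoU14, sno12 and sno16 turned to 0.24, 0.23 and 0.28. Leaving out 1 library turned the sign of some log2 changes that were not called, which ranged over -0.47 to 0.30 (snoU14), -0.11 to 0.062 (sno12), -0.28 to 0.16 (sno16), -0.10 to 0.21 (U1), -0.22 to 0.30 (snu3), -0.041 to 0.33 (snR91), -4.15 to 3.90 (snoR39a) and -3.74 to 0.11 (snR70).

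The alternatives for the 12 longer or older entries were chosen after seeing the data. The number called higher was 3 to 6 without 1 library, 4 under quantile normalization or no filter, 7 with the block and 6 otherwise. Among these entries and pfd1 the block changed only the call of SPNCRNA.1483 (adjusted p = 0.0152), and among the members only those of snR92 and snR94. The counts of all calls were 343 with no filter, 252 under quantile normalization, 1030 with the block and 74 to 448 without 1 library, against 492. The causes were not tested. Unknown depth, and short RNAs listed at 0, limit every statement on rows under 140 nt.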
